A study of Oryctolagus cuniculus with 24 samples.

Results

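ENSOCUG00000027219, a gene on the + strand of rabbit chromosome 15, was listed with more reads than any other nuclear gene in all 12 libraries of lamina propria mononuclear cells (LPMC) of the caecum. It is 1 of the 17318 genes in the deposited tables and was followed in all 24 libraries, 12 of LPMC and 12 of intestinal epithelial cells (IEC). Its level is given in CPM, its reads in each 1000000 reads of the library over all genes. It was chosen for its level in LPMC, so that its level there, and its difference between LPMC and IEC, are described without a test. No gene symbol and no position within the chromosome comes with the identifiers, and the name table used here, of another assembly, matched 0 identifiers. What the gene encodes is therefore not stated, and neither cell type could be checked against markers by name.

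The lamina propria is the connective tissue beneath the intestinal epithelium and holds plasma cells, other lymphocytes, macrophages and further cells of the immune system, whereas the epithelium is a sheet of absorptive, secretory and dividing cells. Cells specialised for secretion often devote much of their RNA to a few transcripts. In RNAseq, such a transcript takes reads from all others, because the reads of a library are shared among its genes.

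RNA of IEC and of LPMC was taken from the same 12 New Zealand white rabbits, aged 8–10 weeks, with 3 rabbits in each of 4 groups. Trichuris suis ova (TSO), eggs of the pig whipworm, were given by gavage to the TSO groups as 3 doses of 2500 on days 1, 14 and 21, and the vehicle, an acid buffer with potassium sorbate, to the Veh groups. Dextran sodium sulphate (DSS), a polysaccharide that injures the epithelium, was dissolved at 0.1% in the fennel tea of the DSS groups for 5 days, beginning on day 26, the Water groups drank the tea alone, and tissue was collected on day 35. The rabbits of these libraries received no immunosuppressive drugs, and all were kept in room A except Veh Water rabbit 1 and TSO Water rabbit 2, which were kept in room B. LPMC were the cells released by collagenase from the tissue left after the epithelium had been detached and then enriched on a Ficoll gradient, so that a library is RNA of a mixture of cells. Libraries were separate rabbits within each group.

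LPMC libraries held 3685511 to 15770415 reads and IEC libraries 13148569 to 27479949. The smallest was LPMC of TSO DSS rabbit 3. Genes of the mitochondrial genome took 9.06% to 24.98% of the LPMC reads and 12.4% to 46.5% of the IEC reads. Some very abundant genes are listed at 0 in single libraries. ENSOCUG00000029096, a mitochondrial gene, is listed at 0 in 3 of the 12 LPMC libraries (rabbits 2 of Veh Water, Veh DSS and TSO DSS) and in 10 of the 12 IEC libraries, although it reached 24387.5 to 83674 CPM in the other 9 LPMC libraries. A further 36 genes of chromosome 2 are listed at 0 in all 12 LPMC libraries, although each had a mean of at least 10 CPM in IEC. Ranks and totals of a library hold none of the reads of genes listed at 0 there.

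In LPMC, ENSOCUG00000027219 took 3.10% to 10.9% of all reads, with a median of 6.50% over the 12 libraries. The largest share was in Veh Water rabbit 1 (10.9%, 95% Wilson interval 10.886% to 10.918%) and the smallest in TSO DSS rabbit 2 (3.10%, 3.092% to 3.110%). Since 350960 to 1530977 reads of each LPMC library fell on the gene, counting error was at most 0.0300 percentage points, far below the differences between rabbits. These intervals cover counting error only.

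Among nuclear genes it ranked first in 12 of 12 LPMC libraries, with 2.00 to 7.97 times the reads of the next nuclear gene. That next gene was ENSOCUG00000008481 on chromosome 12 or ENSOCUG00000017506 on chromosome 2. Among all genes it ranked first in 9 LPMC libraries, second in Veh DSS rabbit 1 and TSO Water rabbit 1, and number 3 in TSO DSS rabbit 2. In the 9 LPMC libraries in which ENSOCUG00000029096 is not listed at 0, it ranked first in 7. The order is an order of reads, since the tables give no gene lengths, and a long transcript yields more reads than a short one at the same number of molecules.

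By its mean over the LPMC libraries it had 70823 CPM ± 24855 (SD, n = 12). The other 4 of the 5 most abundant genes were mitochondrial. ENSOCUG00000029096 had a lowest value of 0 and a highest of 83674 CPM. ENSOCUG00000029101 had 27305 CPM ± 11421, ENSOCUG00000029103 23086 CPM ± 10518 and ENSOCUG00000029099 17422 CPM ± 7703 (SD, n = 12 each). Of the 20 most abundant genes in LPMC, which together took 28.8% of the reads, 11 were mitochondrial and 9 nuclear. The next nuclear genes by mean, ENSOCUG00000017506 with 14924 CPM ± 3478 and ENSOCUG00000008481 with 14163 CPM ± 1636 (SD, n = 12), had means of 19892 and 18781 CPM in IEC, where ENSOCUG00000027219 had 2430.3 CPM.

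**Figure D1:**
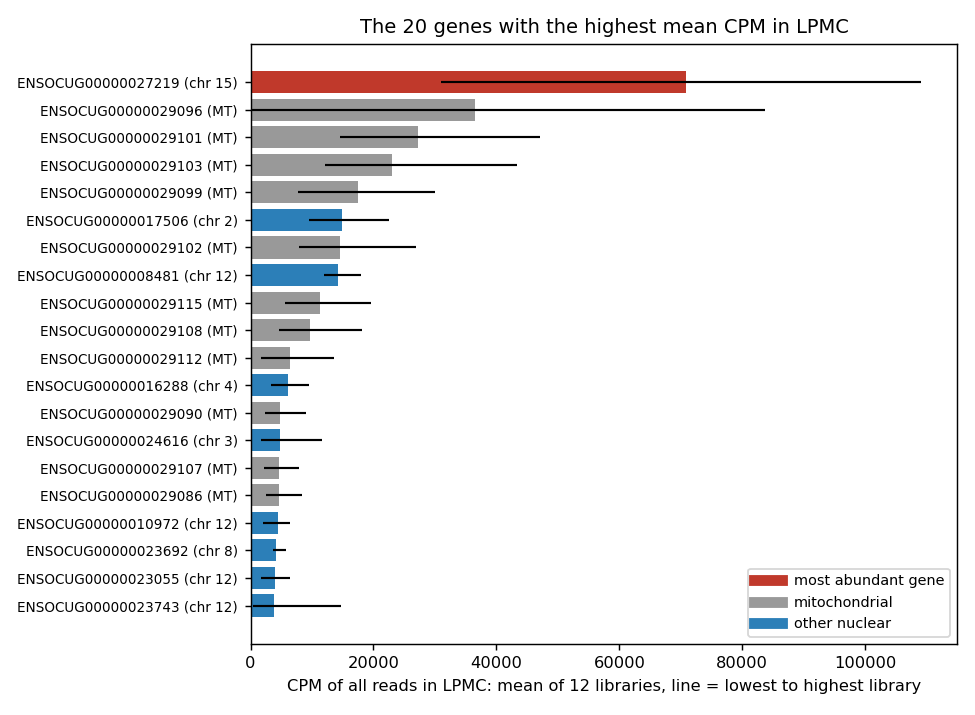
Mean CPM over the 12 LPMC libraries (bars, linear axis from 0) of the 20 genes with the highest mean, with lines from the lowest to the highest library. ENSOCUG00000027219 (red) reached 70823 CPM on average, above the mitochondrial genes (grey) and the 8 other nuclear genes (blue), and its lowest library of 31010 CPM was above the highest library of each of those 8. The line of ENSOCUG00000029096 starts at 0 because it is listed at 0 in 3 libraries.

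In IEC the same gene was far lower, but it was still among the abundant genes of some libraries. It took 0.0392% to 0.897% of the reads and ranked between 8 and 261 among all genes, and between 4 and 246 among nuclear genes. The gene most abundant by mean in IEC was mitochondrial, ENSOCUG00000029101, at 48387 CPM, although it is listed at 0 in 1 IEC library. The lowest LPMC value of ENSOCUG00000027219 was 3.46 times its highest IEC value.

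In LPMC of Veh Water rabbits it had 109021, 53230.1 and 95030.4 CPM in rabbits 1, 2 and 3. In TSO Water it had 44970, 72045 and 78336 CPM. Rabbit 2 of the former and rabbit 1 of the latter were low, and the ranges of both groups overlapped. In Veh DSS it had 57948, 55602 and 56236 CPM, and in TSO DSS 101215, 31010.4 and 95227 CPM. The 3 Veh DSS libraries were close together and lay inside the range of each other group, whereas TSO DSS held both the lowest of all 12 LPMC libraries and 1 of the 2 above 100000 CPM.

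The group means in LPMC were 85761 CPM ± 29028 in Veh Water, 75818 ± 38920 in TSO DSS, 65117 ± 17729 in TSO Water and 56595 ± 1214 in Veh DSS (SD, n = 3 rabbits each). By medians TSO DSS (95227 CPM) came before Veh Water (95030.4 CPM), followed by TSO Water (72045 CPM) and Veh DSS (56236 CPM). Neighbours in this order did not differ beyond their spread, since all 4 ranges overlapped. The coefficient of variation was 2.14% in Veh DSS and 27.2% to 51.3% in the other groups. With 3 rabbits a group, this difference in spread was not tested.

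In IEC of Veh Water rabbits it had 1640.4, 1171 and 2255 CPM in rabbits 1, 2 and 3, and in TSO Water 1314, 2786 and 391.6 CPM. In Veh DSS it had 1485, 8967 and 787 CPM. In TSO DSS it had 6352, 914 and 1100.4 CPM. Veh DSS rabbit 2 and TSO DSS rabbit 1 were the 2 highest, and the remaining 10 IEC libraries ranged from 391.6 to 2786 CPM.

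The IEC group means were 3746 CPM ± 4535 in Veh DSS, 2789 ± 3087 in TSO DSS, 1689 ± 544 in Veh Water and 1497 ± 1208 in TSO Water (SD, n = 3 rabbits each). The order of the medians was another one, with 1640.4 CPM in Veh Water, 1485 in Veh DSS, 1314 in TSO Water and 1100.4 in TSO DSS. All 4 ranges overlapped, and the SD of both DSS groups was larger than their mean. The mean was 1136 CPM in Veh DSS without rabbit 2, 1007 in TSO DSS without rabbit 1 and 853 in TSO Water without rabbit 2. Without mitochondrial reads in the total, the TSO Water mean was 2316 CPM.

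**Figure D2:**
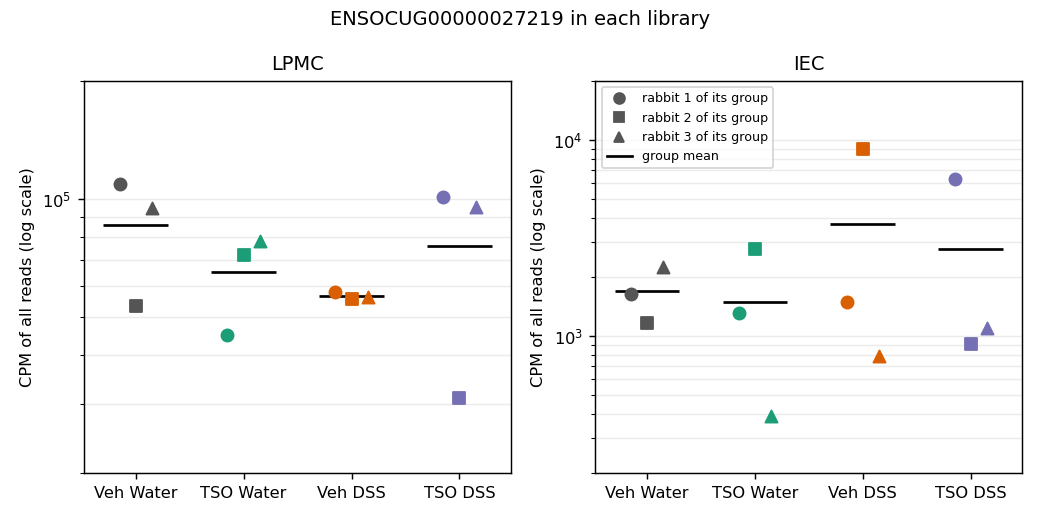
CPM of ENSOCUG00000027219 in each library (log axes, which differ between the panels), with LPMC on the left and IEC on the right, symbols for the 3 rabbits of a group and a black line at the group mean. In LPMC the Veh DSS libraries sit between 55602 and 57948 CPM and TSO DSS spans 31010 to 101215 CPM, and in IEC 2 libraries of the DSS groups stand at 6352 and 8967 CPM above all others.

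The gene varied more between rabbits of a group than most genes did. Its SD of log2 CPM within groups was 0.59 in LPMC, where the median gene of 7165 with a mean of at least 10 CPM had 0.27, and it exceeded that of 84.7% of them. Among the other 19 of the 20 most abundant LPMC genes, 10 had a larger SD. Within groups of IEC its SD was 1.41, against 0.32 for the median of 7025 genes, and exceeded that of 98.3% of them. Counting error accounted for a coefficient of variation of at most 0.169% in LPMC and 1.38% in IEC. Leaving its reads out of the library total would raise the log2 CPM of every other gene by 0.05 to 0.17 in LPMC and by 0.0006 to 0.013 in IEC.

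Within a rabbit, the level in LPMC was 6.20 to 200 times the level in IEC, with a median of 40.6 over 12 rabbits. The lowest ratio was in Veh DSS rabbit 2, whose IEC level was the highest, and the highest in TSO Water rabbit 3, whose IEC level was the lowest. By group, the ratio ran from 42.1 to 66.5 in Veh Water, from 25.9 to 200 in TSO Water, from 6.20 to 71.5 in Veh DSS and from 15.9 to 86.5 in TSO DSS. In bulk RNA, fewer cells of a type and less RNA per cell cannot be told apart.

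Rabbits high in LPMC were not clearly those high in IEC. Over the 12 rabbits, log2 CPM in LPMC and in IEC had a Pearson's r of 0.22 (permutation p = 0.50) and a Spearman's rho of 0.27 (p = 0.39), where 6 such relations were computed and the adjusted values by Benjamini-Hochberg were 0.60 and 0.58. Without the 2 rabbits farthest from the median IEC level r was 0.23 (permutation p = 0.51), and within the 10 rabbits of room A 0.22 (permutation p = 0.54). Room B held 2 rabbits, too few for a value.

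**Figure D3:**
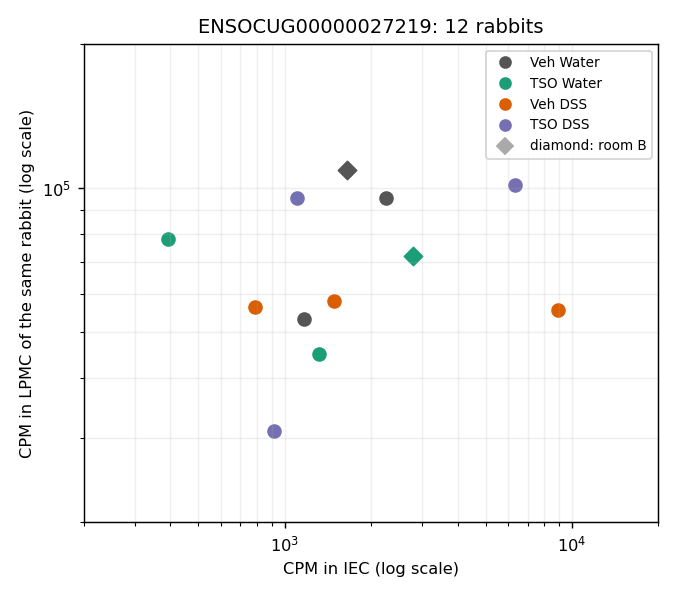
CPM in LPMC against CPM in IEC of the same rabbit (both log axes), coloured by group, with diamonds for the 2 rabbits of room B. All 12 rabbits had at least 31010 CPM in LPMC and at most 8967 CPM in IEC, with no clear relation between both levels (r = 0.22).

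Treatment comparisons asked whether the level changed with TSO, with DSS or with both. Each was fitted by limma over all genes tested on log2(value + 1), so that fold changes are on that scale, and a gene was called where p, adjusted by Benjamini-Hochberg, was under 0.05 and the log2 fold change beyond 1 in either direction. All 3 comparisons to Veh Water within a cell type share the same 3 control libraries.

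In LPMC the gene was not called in TSO DSS against Veh Water, where 5.72% of all 11059 genes tested were called. Its log2 fold change was -0.40 (SE 1.22, 95% confidence interval -3.37 to 2.57, limma adjusted p = 0.87), and 0.16 without TSO DSS rabbit 2. In Veh DSS against Veh Water it was -0.58 (SE 0.61, -2.03 to 0.88, limma adjusted p = 0.76), with 0.125% of genes called. In TSO Water against Veh Water it was -0.42 (SE 0.57, -1.77 to 0.92, limma adjusted p = 0.91), with 0.0268% of genes called. The estimate was below 0 in all 3 comparisons, each of which shares the Veh Water libraries, and no interval excluded 0.

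Libraries that share no deposited table were compared on whole reads recovered from the low values and scaled together by TMM. TSO DSS differed from Veh DSS in LPMC by a log2 fold change of 0.25 (SE 0.82, -1.75 to 2.24, limma adjusted p = 0.91), with 0.0% of genes called (0 of 9996, and 906 at an unadjusted p under 0.05). This value was -0.07 without TSO DSS rabbit 1 and -0.01 without TSO DSS rabbit 3. TSO DSS differed from TSO Water by 0.05 (SE 0.85, -1.97 to 2.08, limma adjusted p = 0.99), with 4.26% of genes called, and this value was -0.26, -0.20 and -0.18 without TSO DSS rabbit 1, TSO DSS rabbit 3 and TSO Water rabbit 1. The TSO by DSS interaction was 0.65 (SE 0.87, -1.27 to 2.58, limma adjusted p = 0.91), and 0.0% of genes passed (0 of 10545, and 745 at an unadjusted p under 0.05).

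In IEC the gene was not called either. The log2 fold change in TSO DSS against Veh Water was 0.43 (SE 0.71, -1.28 to 2.13, limma adjusted p = 0.82), where 3.57% of genes were called, and -0.40 without TSO DSS rabbit 1. In Veh DSS against Veh Water it was 0.50 (SE 0.89, -1.64 to 2.65, limma adjusted p = 0.86), with 0.0893% of genes called, and -0.54 without Veh DSS rabbit 2. In TSO Water against Veh Water it was -0.31 (SE 0.73, -2.05 to 1.43, limma adjusted p = 1.00), with 0.0% called (0 of 10985, and 372 at an unadjusted p under 0.05), and 0.44 without TSO Water rabbit 3. It was 0.13 by both edgeR tests and by DESeq2 on the recovered reads, and -1.07 in room A alone. For Veh DSS against Veh Water, edgeR's quasi-likelihood and likelihood ratio tests and DESeq2 gave larger values of 1.26, 1.26 and 1.27 (adjusted p = 0.73, 0.79 and 0.65). For TSO DSS against Veh Water each of them gave 0.89 (adjusted p = 0.64, 0.72 and 0.59). The 2 IEC libraries with the highest values thus set the sign in both DSS groups.

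TSO DSS against Veh DSS in IEC gave a log2 fold change of -0.11 (SE 1.11, -2.79 to 2.57, limma adjusted p = 1.00), with 0.00977% of genes called, and 0.92, 0.51 and 0.11 without Veh DSS rabbit 2, TSO DSS rabbit 2 and TSO DSS rabbit 3. TSO DSS against TSO Water gave 0.71 (SE 0.97, -1.63 to 3.05, limma adjusted p = 0.86), with 2.13% of genes called, and -0.13 and -0.03 without TSO DSS rabbit 1 and TSO Water rabbit 3. The TSO by DSS interaction in IEC was 0.21 (SE 1.45, -3.01 to 3.43, limma adjusted p = 1.00), and 0.0% of genes passed (0 of 10567, and 127 at an unadjusted p under 0.05). It was -0.50 by edgeR's quasi-likelihood test, and between -0.04 and -0.61 on leaving out 1 of Veh Water rabbit 3, Veh DSS rabbits 1 and 3, TSO DSS rabbit 1 and TSO Water rabbit 3.

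A difference of the change between both cell types was tested as the LPMC log2 fold change minus that in IEC. It was -0.79 for TSO DSS (SE 1.02, -3.06 to 1.48, limma adjusted p = 0.72), -1.12 for Veh DSS (SE 1.06, -3.47 to 1.22, limma adjusted p = 0.89) and -0.10 for TSO Water (SE 0.90, -2.09 to 1.89, limma adjusted p = 1.00). These fits treated LPMC and IEC of the same rabbit as independent. With rabbit as the block the estimates were the same, with limma adjusted p of 0.61, 0.79 and 0.999. The Veh DSS value was -0.12 without Veh DSS rabbit 2 and -1.88 without Veh DSS rabbit 3, and the TSO DSS value -0.28 without TSO DSS rabbit 1 and -1.29 without TSO DSS rabbit 3. The TSO Water value turned to 0.04, 0.11 and 0.61 without Veh Water rabbit 1, TSO Water rabbit 1 and TSO Water rabbit 2. Of all genes, 1.83%, 0.0186% and 0.0% passed in these fits, the last being 0 of 10692 with 222 at an unadjusted p under 0.05.

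**Figure D4:**
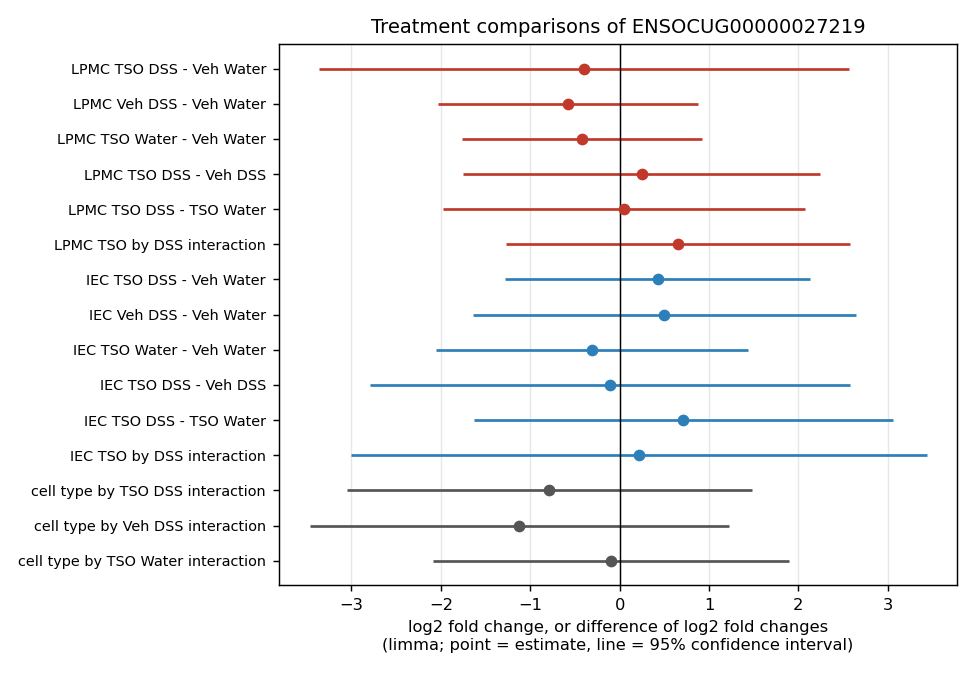
Estimates of limma for ENSOCUG00000027219 (points) with 95% confidence intervals (lines), on the log2 axis, for 10 comparisons of groups, written as the first group minus the second, and 5 interactions. All 15 intervals include 0, and they reach from -3.47 to 3.43.

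Exact permutation tests over the 2 by 2 design, two-sided and stratified by the other treatment, found no difference past 0.05. In LPMC, log2 CPM was 15.91 ± 0.62 with DSS and 16.14 ± 0.49 without (SD, n = 6 each, exact p = 0.50). With TSO it was 15.99 ± 0.67 and without 16.06 ± 0.45 (SD, n = 6 each, exact p = 0.86). In IEC it was 10.98 ± 1.52 with DSS and 10.40 ± 1.00 without (SD, n = 6 each, exact p = 0.48), and 10.50 ± 1.39 with TSO and 10.88 ± 1.21 without (SD, n = 6 each, exact p = 0.65). The LPMC difference with DSS, -0.23 on the log2 scale, was 0.049 without TSO DSS rabbit 2. That with TSO in LPMC, -0.07, was 0.036, 0.21 and 0.057 without Veh Water rabbit 1, TSO DSS rabbit 2 and TSO Water rabbit 1, and that with TSO in IEC, -0.38, was 0.12 without Veh DSS rabbit 2. The IEC difference with DSS, 0.57 on the log2 scale, was 0.063 without Veh DSS rabbit 2, 0.13 without TSO DSS rabbit 1 and 0.19 without TSO Water rabbit 3. The smallest p that this design can give is 0.005, whereas 3 rabbits against 3 cannot go below 0.1.

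These intervals are wide. In LPMC, a fold from 0.244 to 1.84 in Veh DSS and from 0.0970 to 5.93 in TSO DSS was inside the 95% interval of the estimate. Their width is not that of this gene alone, since limma draws each SE towards a trend over genes of similar level. Among these are genes listed at 0 in single libraries, such as ENSOCUG00000029096 (SE 7.05 in TSO DSS against Veh Water). The SD of log2 CPM of ENSOCUG00000027219 itself was 0.55 in Veh Water, 0.03 in Veh DSS and 0.96 in TSO DSS (n = 3 each).

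Of the other 19 of the 20 most abundant, 0 were called by limma in the LPMC comparison of TSO DSS to Veh Water, beside 5.72% of all genes. Their median log2 fold change was -0.52, against -0.05 over all genes, and 5 of the 19 were above 0. Of these 19, 11 are mitochondrial, and mitochondrial genes took 9.06% to 18.8% of the reads in LPMC of TSO DSS and 13.5% to 24.98% in Veh Water. In TSO DSS against TSO Water 1 of the 19 was called, as lower (5.26%, beside 4.26% of all genes). Of the other 597 genes of chromosome 15, 381 were tested in the LPMC comparison of TSO DSS to Veh Water, with 6.56% called (5 higher and 20 lower). With 19 genes, 0 or 1 call cannot be told apart from these shares.

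The genes whose log2 CPM followed that of ENSOCUG00000027219 most closely over the 12 LPMC libraries were much less abundant. Of 7164 genes with a mean of at least 10 CPM, these were ENSOCUG00000017057 on chromosome 1 (r = 0.972), ENSOCUG00000022114 on chromosome 2 (0.966), ENSOCUG00000017619 on chromosome 8 (0.960), ENSOCUG00000007752 on chromosome 3 (0.948) and ENSOCUG00000003199 on chromosome 9 (0.941). ENSOCUG00000027219 had 107 to 496 times their reads. All 5 were lowest in the same library, TSO DSS rabbit 2. The correlations are a description over libraries that share their totals and their depth with the gene, and the genes were picked as the closest of many.

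Over all 24 libraries, where each LPMC value of the gene lay above each IEC value and the 2 cell types make up most of any r, the 5 closest of 7193 genes were ENSOCUG00000022114, ENSOCUG00000006942 on chromosome 3, ENSOCUG00000023055 on chromosome 12, ENSOCUG00000001561 on chromosome 6 and ENSOCUG00000009574 on chromosome 4. They were chosen for their likeness, and their mean in LPMC was 11.8 to 31.5 times that in IEC, beside 29.1 times for ENSOCUG00000027219. ENSOCUG00000022114 had 661 CPM ± 312 in LPMC and 21.0 ± 21.1 in IEC (SD, n = 12), and ENSOCUG00000023055 3981 ± 1498 and 201 ± 160. In all 5, the 2 highest IEC libraries were Veh DSS rabbit 2 and TSO DSS rabbit 1, as for ENSOCUG00000027219 itself. None of these 5 genes, nor of the 5 closest in LPMC, was called by limma in any of the 15 treatment fits that tested it, where at most 5.72% of all genes were called, so that their count of 0 does not set them apart.

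In IEC the closest genes were of a different kind. ENSOCUG00000024526 (r = 0.998), ENSOCUG00000003834 (0.994), ENSOCUG00000028050 (0.993), ENSOCUG00000025374 (0.993) and ENSOCUG00000003837 (0.993) were the 5 closest of 7024 genes over the 12 IEC libraries. All lie on chromosome 2, and all 5 are listed at 0 in every LPMC library. They belong to the 36 genes of chromosome 2 described above, each of which was among the 50 closest genes in IEC. The lowest r among the 36 was 0.917 and their median 0.980, against a median of -0.002 over all 7024 genes.

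ENSOCUG00000025374 exceeded ENSOCUG00000027219 in 11 of the 12 IEC libraries, with 2851 CPM ± 3017 against 2430.3 ± 2586 (SD, n = 12). The summed level of the 36 genes ran from 1514 to 26556 CPM in IEC, and their ratio to ENSOCUG00000027219 only from 2.79 to 3.87, with a median of 3.09, while the gene itself varied 22.9-fold. For all 36 genes, Veh DSS rabbit 2 and TSO DSS rabbit 1 were the 2 highest IEC libraries. Since the 36 genes are listed at 0 throughout LPMC, the rank of ENSOCUG00000027219 in LPMC was set without them, and no ratio to them can be given there. The cause of the values of 0 was not tested.

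**Figure D5:**
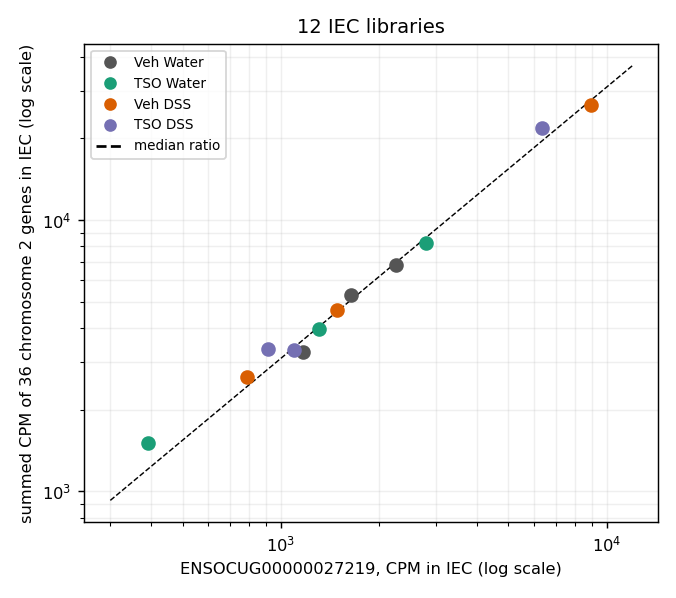
Summed CPM of the 36 chromosome 2 genes against the CPM of ENSOCUG00000027219 in the 12 IEC libraries (both log axes), coloured by group, with a dashed line at the median ratio of 3.09. The points follow the line from 391.6 to 8967 CPM, with Veh DSS rabbit 2 and TSO DSS rabbit 1 at the upper right.

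Genes enriched in LPMC were also seen in IEC libraries. A list was made of 50 genes, without ENSOCUG00000027219, whose lowest CPM in LPMC of Veh Water exceeded 10 times their highest in IEC of Veh Water, with a mean of at least 20 CPM. Chosen on these libraries, it is no independent evidence of a difference. Its summed level was 6789 to 23501 CPM in LPMC libraries. In IEC it was 317 to 424 CPM in Veh Water, 252 to 512 in TSO Water, 489 to 5433 in Veh DSS and 891 to 4019 in TSO DSS. Veh DSS rabbit 2 had the highest sum, 5433 CPM, together with the highest level of ENSOCUG00000027219, and TSO DSS rabbit 1 had the second highest level of the gene, 6352 CPM, with the sum next below the highest 2, 2995 CPM. TSO DSS rabbit 2 had the second highest sum, 4019 CPM, with 914 CPM of the gene.

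Over the 12 IEC libraries, log2 of this sum and log2 CPM of ENSOCUG00000027219 had an r of 0.49 (permutation p = 0.12, adjusted 0.35) and a rho of 0.31 (permutation p = 0.33, adjusted 0.58). Without the 2 rabbits farthest from the median sum r was 0.45, and in room A 0.54, and neither passed. The part of LPMC in the IEC level was not tested further. The reverse list, of genes enriched in IEC by the same rule, held 35 genes, of which 31 were among the 36 of chromosome 2. These 31 met the rule through their values of 0 in LPMC, which can be failed estimates, so that they are no sign of enrichment in IEC. The remaining 4 summed to 23.7 to 92.2 CPM in LPMC libraries and to 185 to 1362 CPM in IEC. Both IEC libraries with the highest levels of ENSOCUG00000027219 were low in this sum, with 246 CPM in Veh DSS rabbit 2 and 440 CPM in TSO DSS rabbit 1, the lowest being TSO DSS rabbit 3 with 185 CPM and the other 9 having 718 CPM or more. The part of this in the level of the gene was not tested.

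The level was also set against depth and the mitochondrial share. The gene and the mitochondrial genes are parts of one library total, so that a negative r between them is partly built in. The share also lacks mitochondrial genes where they are listed at 0. These were ENSOCUG00000029096 in 3 LPMC and 10 IEC libraries, ENSOCUG00000029103 in 3 IEC libraries, and ENSOCUG00000029101 and ENSOCUG00000029102 in 1 IEC library each. In LPMC, r with the mitochondrial share was -0.41 (permutation p = 0.18, adjusted 0.37) and rho -0.65 (permutation p = 0.026, adjusted 0.15), and r was -0.64 without the 2 farthest rabbits (permutation p = 0.049) and -0.34 within room A (permutation p = 0.34). With depth, r in LPMC was -0.45 (permutation p = 0.11, adjusted 0.35), -0.22 without the 2 farthest and -0.60 within room A (permutation p = 0.035). In IEC, r was -0.25 with the mitochondrial share and 0.11 with depth (permutation p = 0.45 and 0.72, adjusted 0.60 and 0.72). Without the 2 farthest rabbits r was -0.50 and 0.19, and within room A -0.40 and 0.11. None of the 6 relations passed after adjustment.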

How the data were processed

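RNA of IEC and LPMC from 12 rabbits was sequenced on an Illumina HiSeq by the authors. Per the labels, the genome build was OryCun2.0 and FastQC was used; the aligner and counter are not given in the sources used here. The authors deposited 6 tables, each holding 3 treated and 3 Veh Water libraries of a cell type, with a normalized signal per gene and library; their columns of fold changes and p-values were not used. For values under 1000, 100% were within 0.1 of whole multiples of the value of 1 read, and the factors of a table differed by at most 0.025% from TMM over all genes. CPM was computed from the normalized signal of a library, divided by its sum over all genes.

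ENSOCUG00000027219, the gene lists and the tests were chosen with earlier results of these data known. Genes named beside it are the 5 most abundant in LPMC, the most abundant in IEC, and the 5 with the highest r to it in LPMC, in IEC and in all libraries; ENSOCUG00000017506, ENSOCUG00000008481 and the chromosome 2 genes were added after their values were seen.

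limma 3.58.1 (trend) in R 4.3.3 was run on log2(value + 1), over genes that the authors marked as present within a table, or, across tables, over genes kept by filterByExpr of edgeR 4.0.16. Alternatives were other scalings, a pseudocount of 0.1, no filter, room A, each rabbit left out, the replicate block, edgeR and DESeq2 1.42.0 on recovered reads. The limma fit was tested on simulated data for the comparisons to Veh Water only. The other comparisons, the interactions, edgeR, DESeq2 and the permutation tests were not. Correlations were tested by permutation with 100000 resamples. Room and rabbit came from a supplement of the paper. IEC and LPMC of a rabbit are pairs by origin, and their deviations from group means correlated between -0.087 and 0.339 over genes. The methods of the paper give paired reads and the labels single ones.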

Additional observations from a re-analysis of the deposited data

How the results depend on the processing

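In 19 treatment comparisons, 304 alternative values were computed, and the gene passed in none of them, with a lowest adjusted p of 0.32 (DESeq2, LPMC of Veh DSS against Veh Water). The direction turned in 32. Leaving out 1 rabbit each moved LPMC values from -0.73 to 0.16 (TSO DSS against Veh Water), -0.065 to 0.82 (TSO DSS against Veh DSS), -0.26 to 0.63 (TSO DSS against TSO Water), -0.38 to 0.049 (DSS main effect) and -0.22 to 0.21 (TSO main effect). IEC values moved from -0.40 to 1.02 (TSO DSS against Veh Water), -0.54 to 1.29 (Veh DSS against Veh Water), -1.07 to 0.44 (TSO Water against Veh Water), -0.94 to 0.92 (TSO DSS against Veh DSS), -0.13 to 1.48 (TSO DSS against TSO Water), -0.61 to 1.25 (TSO by DSS interaction) and -0.83 to 0.12 (TSO main effect), and the cell type by TSO Water interaction from -1.01 to 0.61. Without a turn in direction, LPMC values moved from -0.91 to -0.41 (Veh DSS against Veh Water), -0.74 to -0.19 (TSO Water against Veh Water) and 0.35 to 1.22 (TSO by DSS interaction), the IEC DSS main effect from 0.063 to 0.94, and the cell type interactions from -1.29 to -0.28 (TSO DSS) and -1.88 to -0.12 (Veh DSS). IEC of TSO Water against Veh Water was 0.13 by quasi-likelihood, by likelihood ratio and by DESeq2. The IEC interaction was -0.50 by quasi-likelihood, and the cell type by TSO Water interaction was 0.16 on CPM. The cell type by Veh DSS interaction was -1.95 by edgeR's quasi-likelihood test (adjusted p = 0.76), beyond its range on leaving out 1 rabbit. The cause of these shifts was not tested. The LPMC Veh DSS mean moved to 69666 CPM without mitochondrial reads and to 59991 without the reads of the gene itself in the total, since both shrink the total. Those of the other groups stayed within 1 SD, though without mitochondrial reads LPMC Veh Water rose to 107432 CPM and IEC TSO Water to 2316, and with 1 rabbit left out IEC Veh DSS ranged from 1136 to 5226 CPM, IEC TSO DSS from 1007 to 3726 and IEC TSO Water from 853 to 2050.3. Of the relations, the LPMC level against mitochondrial share (r = -0.64 without the 2 farthest rabbits) and against depth (r = -0.60 in room A) came past an unadjusted 0.05. Leaving out the 36 chromosome 2 genes from the IEC totals, chosen after seeing the data, kept all 4 IEC means within 1 SD. Same-numbered rabbits of different groups did not pair (r of their deviations from -0.36 to 0.31), and the replicate block changed no call (for example -0.40 for TSO DSS to Veh Water in LPMC, adjusted p = 0.81). With rabbit as the block, the cell type by Veh DSS interaction was -1.12 (adjusted p = 0.79).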
